A study of Gallus gallus with 6 samples.

Results

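*PTHLH* encodes the parathyroid hormone-like hormone, and its level is described here in 6 small yellow follicles of the hen. The gene was taken by its number in the deposited table (gene1125), which makes 1 of 17992 genes. RNA of whole follicles was sequenced, 1 library each, and every one of the 3 Jining Bairi hens (30 weeks old, wild type by the labels) gave 2 follicles. T4 and T1 came from hen 1, T5 and T2 from hen 2, and T6 and T3 from hen 3; this pairing is given by the paper and not by the labels. The submitters' labels call T4, T5 and T6 follicles with a lower and T1, T2 and T3 follicles with a higher level of *FSHR*, the receptor of follicle-stimulating hormone. The paper describes them the other way round, and in the deposited values *FSHR* had 46.4, 18.9 and 27.8 FPKM in the libraries labelled T4, T5 and T6, against 11.9, 13.1 and 13.9 FPKM in T1, T2 and T3. The follicles are therefore called by their numbers, and ratios are formed within the hen, with T4, T5 or T6 on top. FPKM counts fragments per kilobase of transcript and per sequenced library. Each follicle is 1 sample, so that single ratios lack a check by replicates. T4 stood apart from the other libraries: Spearman's rho over genes was 0.866 to 0.932 between T4 and the rest, and 0.943 to 0.977 among the rest. Several results that rest on T4, but not all, are therefore also given without it or without hen 1.

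Parathyroid hormone-like hormone is a secreted peptide that acts near the cells that make it. It binds the receptor that it shares with parathyroid hormone, PTH1R, which raises cyclic AMP through a stimulatory G protein. In growth plate cartilage it acts in a loop with Indian hedgehog, and in the hen oviduct it has been described as a relaxing factor of smooth muscle. A small yellow follicle holds an oocyte within a layer of granulosa cells, which carry FSHR, and a theca of fibroblasts, vessels, muscle and nerve. The deposited values belong to whole follicles, so that fewer cells of a type and less RNA per cell cannot be told apart.

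In the deposited table, *PTHLH* lies on chromosome 1 from 72579909 to 72591254 on the minus strand, with a listed transcript length of 1619 bases. The sources used here conflict on the build of these positions. The primer pair that the study designed for *PTHLH* is shown because it is the sequence through which the study measured this transcript apart from the libraries. Both primers are 19 bases long, with a GC content of 52.6% (forward) and 47.4% (reverse), and are written 5′ to 3′.
PTHLH forward primer: agaggaactgcgacgaaca
PTHLH reverse primer: ggattgatttgcccttgtc

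*PTHLH* was expressed in every follicle and was highest in T4. Its level was 49.4 FPKM in T4, 12.5 FPKM in T5 and 18.5 FPKM in T6, against 9.29 FPKM in T1, 6.96 FPKM in T2 and 7.22 FPKM in T3. T4, T5 and T6 were all above T1, T2 and T3, so that the groups did not overlap. Of the 12381 genes that reached 1 FPKM in 3 or more follicles, 5.94% were placed in this way. The mean was 26.8 ± 19.8 FPKM in T4, T5 and T6 and 7.82 ± 1.28 FPKM in T1, T2 and T3 (SD, n = 3 each). T1, T2 and T3 thus lay close together, while T4 was far above T5 and T6.

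The second deposited unit, the normalized count, is an estimate of a gene's fragments scaled by a library factor. For *PTHLH* it was 519.8 in T4, 144 in T5 and 194 in T6, against 80.1 in T1, 66.7 in T2 and 60.7 in T3. The groups did not overlap in this unit either, as for 8.41% of the 12381 genes. The values were whole multiples of the library's step, within 0.02, in all 6 libraries, and correspond to 513, 141 and 192 fragments in T4, T5 and T6, against 86, 68 and 63 fragments in T1, T2 and T3. *PTHLH* was therefore read from at least 63 fragments in every library. The exact Poisson interval (95%) was 470 to 559 fragments in T4, 119 to 166 in T5 and 166 to 221 in T6, against 68.8 to 106 in T1, 52.8 to 86.2 in T2 and 48.4 to 80.6 in T3. These intervals cover counting error only. The libraries were of similar depth, between 12554918 and 13933217 estimated fragments on genes.

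**Figure D1:**
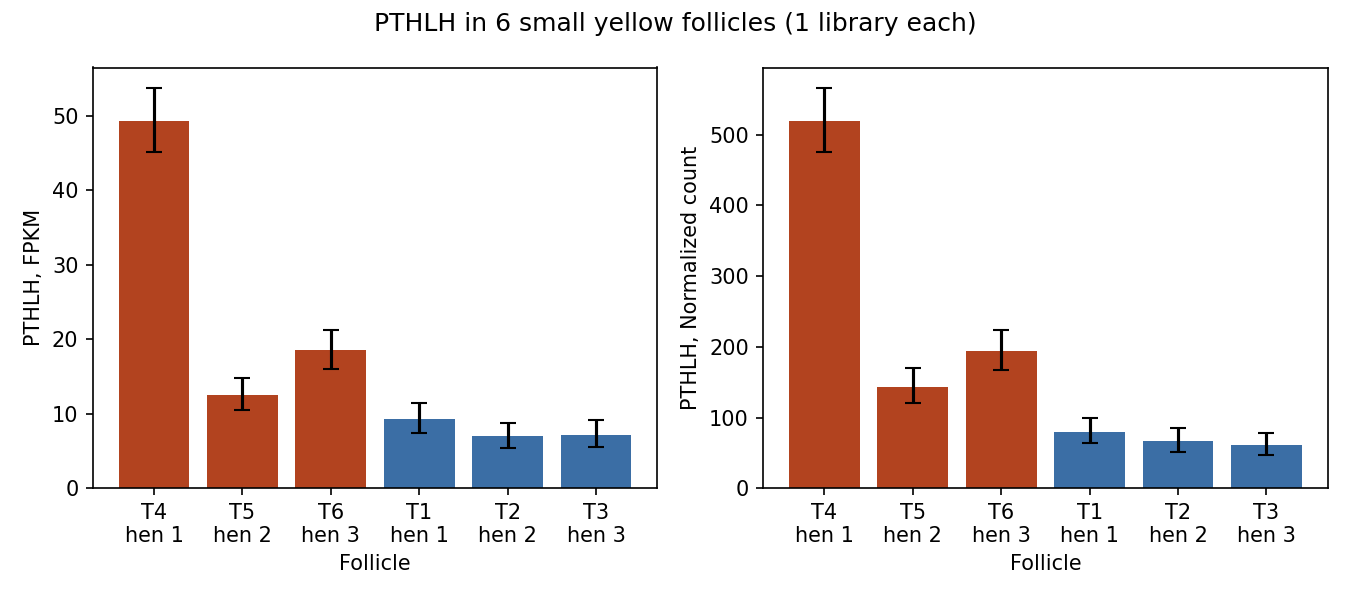
*PTHLH* per follicle in FPKM (left) and in normalized count (right), T4, T5 and T6 (red) before T1, T2 and T3 (blue). Bars are single libraries and error bars are exact 95% Poisson intervals of the estimated fragments; T4 stands at 49.4 FPKM, and T1, T2 and T3 lie between 6.96 and 9.29 FPKM.

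From high to low, the order of the FPKM levels was T4, T6, T5, T1, T3 and T2. The counting intervals of T1, T2 and T3 overlapped, so these follicles are not resolved from each other, and in normalized count T2 stood above T3. In FPKM, T5 (interval 10.5 to 14.8 FPKM) also overlapped T1 (7.43 to 11.5 FPKM). In normalized count they did not overlap: the interval was 121 to 169 in T5 and 64.0 to 98.9 in T1. T6 (16.0 to 21.3 FPKM) lay above T5, and T4 (45.2 to 53.8 FPKM) above T6.

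*PTHLH* was a moderately expressed gene whose place among the other genes moved with its level. By FPKM it ranked 2597th of 17992 genes in T4, 6403rd in T5 and 5342nd in T6, against 7659th in T1, 8357th in T2 and 8666th in T3. Of the genes at 1 FPKM or more in a follicle, 21.8% in T4, 53.0% in T5 and 44.3% in T6 were above *PTHLH*, against 62% in T1, 68.0% in T2 and 69.3% in T3. Its level was 3.23 times the median of those genes in T4, 0.906 times in T5 and 1.22 times in T6, and between 0.504 and 0.641 times in T1, T2 and T3. It was thus above the median expressed gene in T4 and T6 only.

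Within each hen, *PTHLH* was higher in T4 than in T1, in T5 than in T2 and in T6 than in T3. The ratio of FPKM was 5.31-fold in hen 1, 1.80-fold in hen 2 and 2.57-fold in hen 3. With 0.5 FPKM added, the scale on which genes were compared, the log2 ratios were 2.35, 0.80 and 1.30. In normalized count the ratio was 6.49-fold in hen 1 (95% interval 5.16 to 8.26), 2.15-fold in hen 2 (1.60 to 2.92) and 3.19-fold in hen 3 (2.39 to 4.32), from exact Clopper-Pearson limits on the estimated fragments. All 3 intervals lay above 1. The interval of hen 1 lay above those of hens 2 and 3, and the intervals of hens 2 and 3 overlapped. These limits cover counting error only, with 1 follicle against 1, and test no difference within or between hens.

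The 2 units did not give the same ratio. The normalized count gave a ratio 1.22 times that of FPKM in hen 1, 1.20 times in hen 2 and 1.25 times in hen 3. Only in normalized count did hen 2 pass 2-fold. The FPKM of *PTHLH* per normalized count was 0.0950 in T4, 0.0871 in T5 and 0.0954 in T6, against 0.116 in T1, 0.104 in T2 and 0.119 in T3. A unit of normalized count was thus worth less FPKM in T4, T5 and T6. The highest of these 6 values was 1.36 times the lowest. Over 8074 genes with at least 5 FPKM in every follicle the median of this quotient was 1.12, and 11.4% of them had a larger one than *PTHLH*. The cause was not tested.

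**Figure D2:**
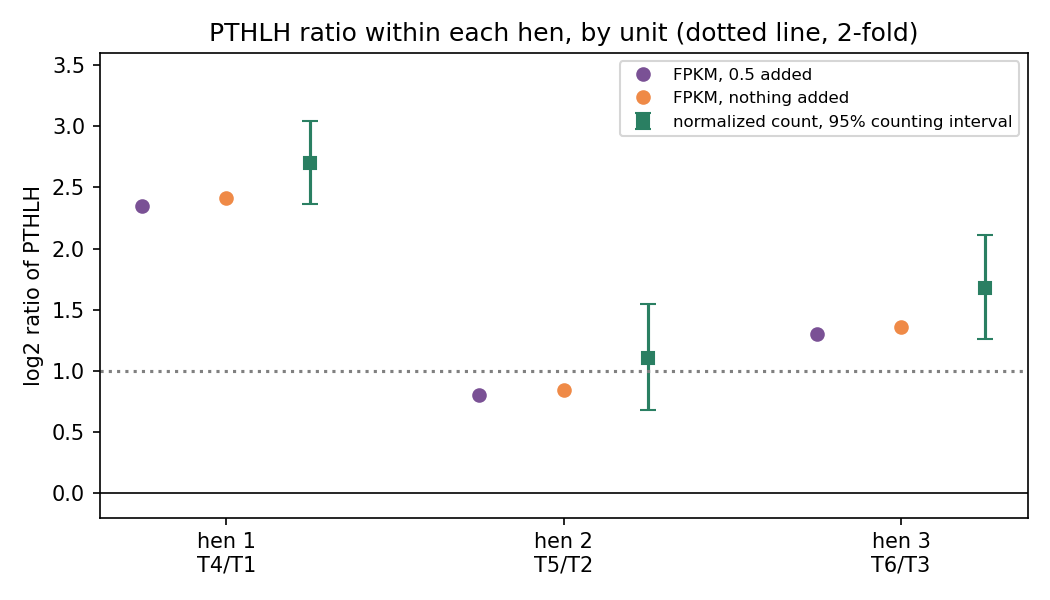
Log2 ratio of *PTHLH* within each hen (T4/T1, T5/T2 and T6/T3) in FPKM with 0.5 added, in FPKM alone and in normalized count with its 95% counting interval. The ratio is above 0 in every hen and unit, and in hen 2 it lies at 0.80 with 0.5 added and at 1.11 in normalized count, on either side of the dotted 2-fold line.

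Set against all genes, the ratio of *PTHLH* was near the upper end in each hen. Among genes that reached 1 FPKM in either follicle of the pair, *PTHLH* ranked 86th of 12688 genes from the top in hen 1. It ranked 316th of 12585 genes in hen 2 and 185th of 12706 genes in hen 3. A ratio of 2-fold or more was reached by 5.38% of the genes (hen 1), 1.46% (hen 2) and 2.61% (hen 3), and *PTHLH* was among them in hens 1 and 3. In normalized count, 6.12% of the genes (hen 1), 2.01% (hen 2) and 2.65% (hen 3) were at least 2-fold higher, and *PTHLH* was among them in every hen, at rank 99, 200 and 102. The median log2 ratio of all genes was 0.01, -0.02 and 0.01 in hens 1, 2 and 3 (FPKM with 0.5 added). At 2-fold or more in all 3 hens there were 34 of the 12381 genes by FPKM, without *PTHLH*, and 37 by normalized count, with *PTHLH*. In 21 genes the log2 ratio was at least that of *PTHLH* in every hen.

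**Figure D3:**
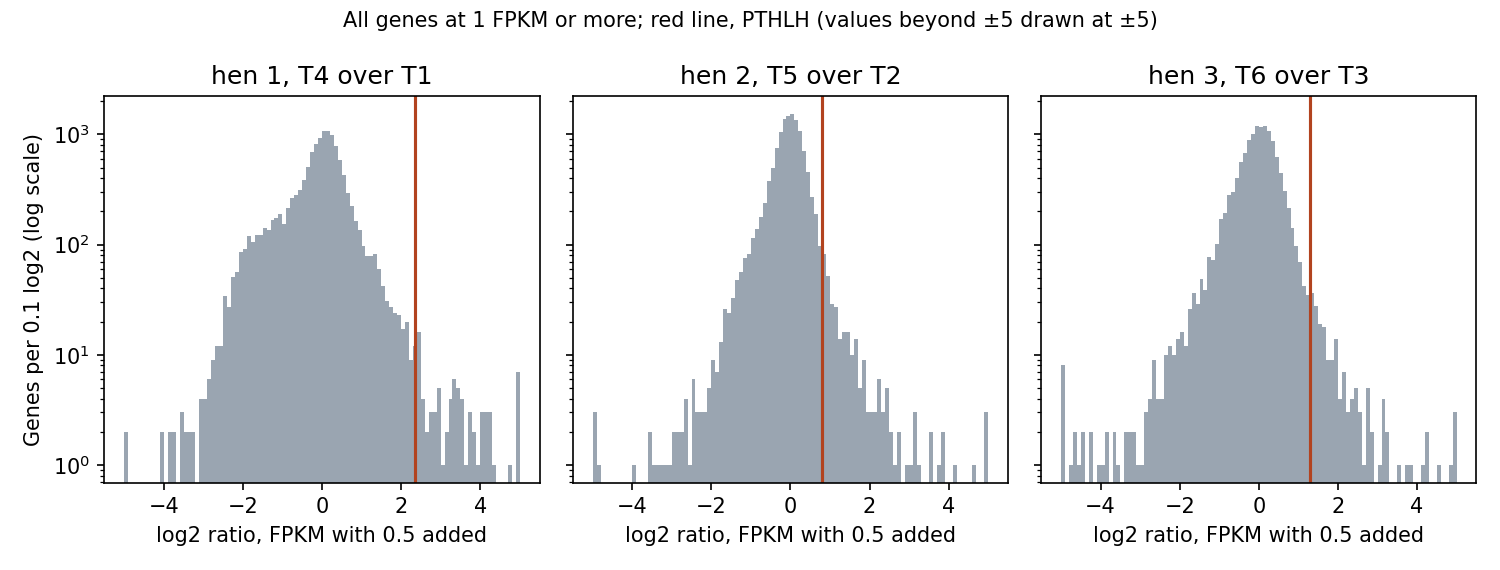
Distribution of the log2 ratio (FPKM with 0.5 added) of all genes that reached 1 FPKM in either follicle of the pair, 1 panel per hen, with the number of genes on a log scale. The red line marks *PTHLH* at 2.35, 0.80 and 1.30, in the upper tail of each panel.

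Over the 3 hens, the mean log2 ratio of *PTHLH* was 1.48 (SD 0.79, n = 3 hens, all of them positive; limma's standard error 0.32). Tested with all other genes, it missed the threshold (limma with the hen as a block, adjusted p = 0.774). No gene reached it: limma called 0% of the 12381 genes at an adjusted p under 0.05, and 708 had an unadjusted p under 0.05, among which *PTHLH* ranked 57th. The exact sign-flip permutation test over hens gave a two-sided p of 0.25, the smallest that 3 hens allow. In normalized count the mean log2 ratio was 1.82 (adjusted p = 0.753, limma). Without hen 1, the hen of T4, the mean was 1.05 and the adjusted p from limma 0.000228, with 466 genes called. That call rests on 2 hens, which leave 1 residual degree of freedom. The adjusted p became 0.0419 without the robust option of eBayes and 0.139 without its trend as well, with 125 and 21 genes called.

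The genes whose levels ran most nearly parallel to *PTHLH* were sought by Pearson's r of log2(FPKM + 0.5) over the 6 follicles. The 6 points share hens and libraries, T4 is far from the rest, and r is a description without a test. Of 12380 other genes, 181 had an r of 0.95 or more, and 12 of these of 0.99 or more. Without T4 the number at 0.95 or more was 158. Over the 6 follicles a gene of the table had a median of 54 companions at 0.95 or more, and 18.7% of the genes had more than *PTHLH*. Many companions at an r of 0.95 or more are thus not particular to *PTHLH*. Names were available for 294 of the tested genes and for 47 of the 181. These names come from the study's list of genes called between T4 and T1, so that the named genes, *PTHLH* included, were chosen on hen 1, and their direction in hen 1 is not independent evidence.

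Named genes with a high r code for proteins of varied kinds. *CDYL2*, a chromodomain protein, had an r of 0.997, and *TFRC*, the transferrin receptor that takes up iron, also 0.997. *LRP12*, of the low-density lipoprotein receptor family, had 0.995, *CACHD1*, a membrane protein related to calcium channel subunits, 0.994, and *SEMA3A*, a secreted guidance factor, 0.993. They were followed by the orphan nuclear receptor *ESRRB* (0.992), the proteoglycan *CSPG5* (0.99), *SMAD2*, a transducer of activin and TGF-β (0.989), and the transporter *SLC35F2* (0.989). Similar shape did not mean similar size of the difference. The mean log2 ratio over hens was 2.71 for *ESRRB*, 2.03 for *SMAD2*, 1.49 for *SLC35F2* and 1.47 for *SEMA3A*, against 0.55 for *CACHD1* and 0.70 for *TFRC*.

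Of these, *SMAD2* was the most abundant after *CSPG5*, with 709, 169 and 299 FPKM in T4, T5 and T6, against 96.9, 70.7 and 75.5 FPKM in T1, T2 and T3. *CSPG5* had 1027, 355 and 397 FPKM in T4, T5 and T6, against 253, 207 and 179 FPKM in T1, T2 and T3. Both genes kept the groups apart, as *PTHLH* and 5.94% of the 12381 genes did. Their choice by a high r with *PTHLH* favours this. *ESRRB* was low in T1, T2 and T3 (0.778, 0.599 and 0.427 FPKM) and reached 24.1, 1.85 and 5.83 FPKM in T4, T5 and T6. Its log2 ratios were 4.27, 1.10 and 2.77 in hens 1, 2 and 3, the largest of the 9 in hens 1 and 3, while *SMAD2* had the larger one in hen 2 (1.25).

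Without T4, r with *PTHLH* was between 0.956 (*CSPG5*) and 0.997 (*SMAD2*) for these 9 named genes. Without T4 and T6, the follicles farthest from the median *PTHLH* level, it was between 0.915 (*SEMA3A*) and 0.996 (*TFRC*). The list itself was less stable than these values: of the 20 genes with the highest r, 9 were among the 20 highest without T4 and 3 among the 20 highest without T4 and T6. The 5 genes without a name that had the highest r were gene12712 (0.997), gene368 (0.993), gene10297 (0.992), gene13424 (0.991) and gene1551 (0.991). Their mean log2 ratios were smaller than that of *PTHLH*, between 0.33 (gene368) and 0.66 (gene10297).

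*FSHR* came 90th in this order, with an r of 0.968, a rho of 0.829 and an r of 0.700 without T4 and T6. Its log2 ratios were 1.92, 0.51 and 0.98 in hens 1, 2 and 3, against 2.35, 0.80 and 1.30 for *PTHLH*. The order of the hens was the same for both genes. Every named gene with a high r given above had this order too, so it was not particular to *FSHR*. The share of all genes with this order was not computed. The paper compared the follicles by *FSHR*, which was also named through the genes called between T4 and T1. The ratios of *FSHR* are thus not independent of these choices.

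At the other end, the named genes with the lowest r were *COL24A1*, a fibrillar collagen (-0.963), the homeobox gene *HOXA2* (-0.958), the netrin receptor *UNC5A* (-0.944), *PHACTR3*, a regulator of phosphatase and actin (-0.929), and *PTPRVP*, a receptor-type tyrosine phosphatase (-0.926). *COL24A1* had 0.533, 2.54 and 1.23 FPKM in T4, T5 and T6, against 3.12, 2.78 and 2.92 FPKM in T1, T2 and T3. All 5 were low in level, at most 9.16 FPKM (*PTPRVP* in T3). Without T4 and T6 their r lay between -0.656 (*HOXA2*) and 0.287 (*UNC5A*), so that the strongly negative values rested on T4 and T6.

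**Figure D4:**
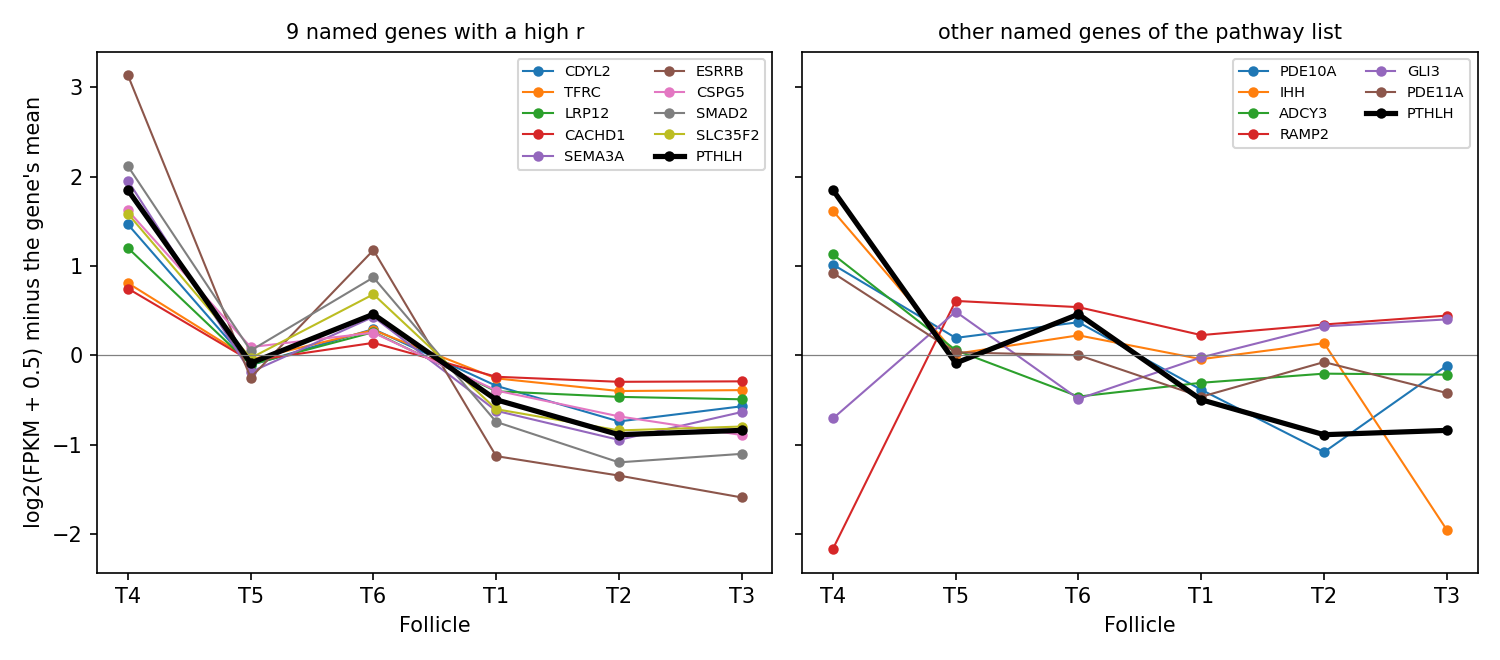
Level of each gene in each follicle as log2(FPKM + 0.5) minus the gene's mean over the 6 follicles, with *PTHLH* in black; left, 9 named genes with a high r, right, the 6 other named genes of the pathway list. The genes on the left have their highest value in T4 and their next in T6. On the right *PDE10A* and *IHH* also have their highest value in T4 and their next in T6, and *RAMP2* and *GLI3* have their lowest value in T4.

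Of 63 other genes of the pathway of *PTHLH* (receptors, G proteins, adenylate cyclases, phosphodiesterases, cyclic AMP targets and the hedgehog loop), 6 could be tied to a gene number. The receptor *PTH1R* was not analysed here. No member passed limma, which called 0% of the 12381 genes. Of the 6, 5 were tested, since *PDE11A* reached 1 FPKM in T4 only. The count at 2-fold or more was made with 0.5 FPKM added. By it, 4 were higher in hen 1, 1 in hen 2 (*PDE10A*) and 1 in hen 3 (*IHH*), and 1 was lower, *RAMP2* in hen 1. For members of low level this addition decides the count. In T6 and T3, *GLI3* had 1.25 and 2.73 FPKM and *PDE11A* 0.448 and 0.207 FPKM, and neither was counted in hen 3. Over all genes the shares were 5.38%, 1.46% and 2.61% higher and 13.3%, 3.31% and 4.41% lower in hens 1, 2 and 3. The median log2 ratio of the 6 was 1.40, 0.21 and 0.26 in hens 1, 2 and 3, beside 0.01, -0.02 and 0.01 for all genes. Since names came from the genes called between T4 and T1, the counts in hen 1 largely follow from that choice, and nothing is read from them. The naming list held all higher genes but only the first of the lower ones, so lower members could be missed. The 6 are thus no like match for all genes in hens 2 and 3 either, and nothing is read from those counts. *PLCB1* and *PRKCA*, which the paper lists as downregulated between T1 and T4, were not matched. The medians of the 6 are therefore not those of the pathway.

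*RAMP2*, an accessory protein of peptide hormone receptors that pairs with human PTH1R, had 11.8, 83.8 and 79.9 FPKM in T4, T5 and T6, against 64.2, 69.7 and 74.8 FPKM in T1, T2 and T3. It was low in T4 alone. *ADCY3*, an adenylate cyclase that makes cyclic AMP, had 346, 164 and 114 FPKM in T4, T5 and T6, against 127, 137 and 136 FPKM in T1, T2 and T3, with a log2 ratio of -0.25 in hen 3. *IHH*, the Indian hedgehog ligand, had 581, 191 and 221 FPKM in T4, T5 and T6, against 183, 208 and 48.4 FPKM in T1, T2 and T3. *IHH* was higher in T4 than in T1 and in T6 than in T3, with a log2 ratio of -0.12 in hen 2. The phosphodiesterase *PDE10A*, which degrades cyclic nucleotides, was higher in all 3 hens (log2 ratios 1.40, 1.28 and 0.49). *GLI3*, a transcription factor of the hedgehog pathway, was at 0.999 to 2.93 FPKM in T4, T5 and T6. In T1, T2 and T3 it was at 1.91 to 2.74 FPKM, so the groups overlapped. Within hens 1, 2 and 3 its log2 ratios were -0.68, 0.16 and -0.89. None of the 5 tested members was closer to *PTHLH* than an r of 0.888 (*PDE10A*, 0.797 without T4).

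Of 40 other genes of peptide hormones and growth factors, 5 could be tied to a gene number. With 0.5 FPKM added, a ratio of 2-fold or more was seen for all 5 in hen 1, for 2 in hen 2 and for 2 in hen 3. None was 2-fold lower. Over all genes 5.38%, 1.46% and 2.61% were 2-fold higher in hens 1, 2 and 3. The 5 were matched through the genes called between T4 and T1, so the count in hen 1 follows from the naming. That list held all higher genes but only the first of the lower ones, so lower members could be missed. Genes chosen in this way are no like match for all genes in hens 2 and 3 either. Nothing is read from these counts in any hen. No member passed limma, which called 0% of the 12381 genes. The median log2 ratio of the 5 was 1.86, 0.85 and 0.86 in hens 1, 2 and 3. The 2 members in hens 2 and 3 alike were *INHA*, the α subunit of inhibin, with log2 ratios of 4.97, 2.44 and 6.23, and *RLN3*, a relaxin, with log2 ratios of 5.72, 2.47 and 1.29. *RLN3* had its largest ratio in hen 1, like *PTHLH*, and *INHA* in hen 3.

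*PENK*, the enkephalin precursor, had log2 ratios of 1.86, 0.05 and 0.86, and *VEGFA*, a growth factor of vessels, of 1.34, -0.01 and 0.46. In both, hen 2 was near 0. *STC1*, stanniocalcin, another hormone linked to calcium and phosphate, had log2 ratios of 1.25, 0.85 and -0.75. The ratio of *PTHLH* in hen 2, 0.80, was thus between those of *INHA* and *RLN3* and those of *PENK* and *VEGFA*.

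The nearest genes of the table on chromosome 1 had levels that differed less between follicles than those of *PTHLH*. From the lowest to the highest follicle, log2(FPKM + 0.5) rose by 0.70 for gene1124 and 0.51 for gene1126, against 2.74 for *PTHLH*. In hen 2 the log2 ratio of gene1124 was -0.54, against 0.80 for *PTHLH*. Gene1124, on the plus strand 69.5 kb below *PTHLH*, had 5.93, 3.46 and 4.29 FPKM in T4, T5 and T6, against 5.63, 5.26 and 5.31 FPKM in T1, T2 and T3. Gene1126, on the plus strand 104 kb above it, had 4.44, 5.85 and 4.15 FPKM in T4, T5 and T6, against 4.27, 4.85 and 3.96 FPKM in T1, T2 and T3. The mean log2 ratio over hens was -0.25 for gene1124 (adjusted p = 0.811, limma) and 0.12 for gene1126 (adjusted p = 0.885, limma), against 1.48 for *PTHLH*.

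Only some markers of the follicle's cell types could be matched, and their levels are set beside *PTHLH* as a description. Of 12 granulosa markers 5 were matched (*FSHR*, *INHA*, *ZP3*, *NR5A1* and *WNT4*), and their summed level, most of it *ZP3*, was 13719, 5752 and 5656 FPKM in T4, T5 and T6, against 2349, 2936 and 2206 FPKM in T1, T2 and T3. With 0.5 FPKM added, 2 of the 5 were 2-fold higher in hen 2 and 4 in hen 3, against 1.46% and 2.61% of all genes. *WNT4* had a log2 ratio of -0.67 in hen 2. In hen 1 all 5 were higher. Of 11 theca and fibroblast markers 6 were matched (*COL1A2*, *COL3A1*, *COL6A3*, *LUM*, *DCN* and *PRRX1*). Their summed level was 988, 4012 and 5832 FPKM in T4, T5 and T6, against 5211, 3870 and 6620 FPKM in T1, T2 and T3. None of the 6 was 2-fold apart in hens 2 or 3, where 3.31% and 4.41% of all genes were 2-fold lower, and all 6 were lower in hen 1, against 13.3% of all genes. For every marker list used here the markers were matched only through the genes called between T4 and T1, so their 2-fold differences in hen 1, and the contrast with hens 2 and 3, are not independent of the matching. The naming list held all higher genes but only the first of the lower ones. Genes chosen in this way are no like match for all genes in hens 2 and 3 either, and nothing is read from those counts.

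The other marker lists were matched thinly. The muscle marker *DES* had 54.8, 239.6 and 274 FPKM in T4, T5 and T6, against 259, 181 and 393 FPKM in T1, T2 and T3. The endothelial markers *CDH5* and *APLNR* summed to 7.30, 43.5 and 42.0 FPKM in T4, T5 and T6, against 35.1, 38.1 and 58.6 FPKM in T1, T2 and T3. The glial marker *SOX10* had 0.366, 3.79 and 3.50 FPKM in T4, T5 and T6, against 2.99, 5.40 and 4.49 FPKM in T1, T2 and T3. No matched marker was listed at 0, and the markers of leukocytes, red blood cells and the oocyte were not analysed here. T4 had the highest *PTHLH* level and, among the matched markers, the highest granulosa and the lowest theca, muscle, endothelial and glial levels. These markers were named through the genes called between T4 and T1, so this place of T4 is not independent of the matching. In hens 2 and 3 the log2 ratio of *PTHLH* was 0.80 and 1.30 while the median log2 ratio of the 6 theca and fibroblast markers was -0.06 and -0.14, and that of the 5 granulosa markers 0.51 and 1.29. The granulosa median in hen 2 was the ratio of *FSHR* itself, the gene by whose level the paper compared the follicles. The part of the cell mixture in the *PTHLH* ratios was not tested.

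**Figure D5:**
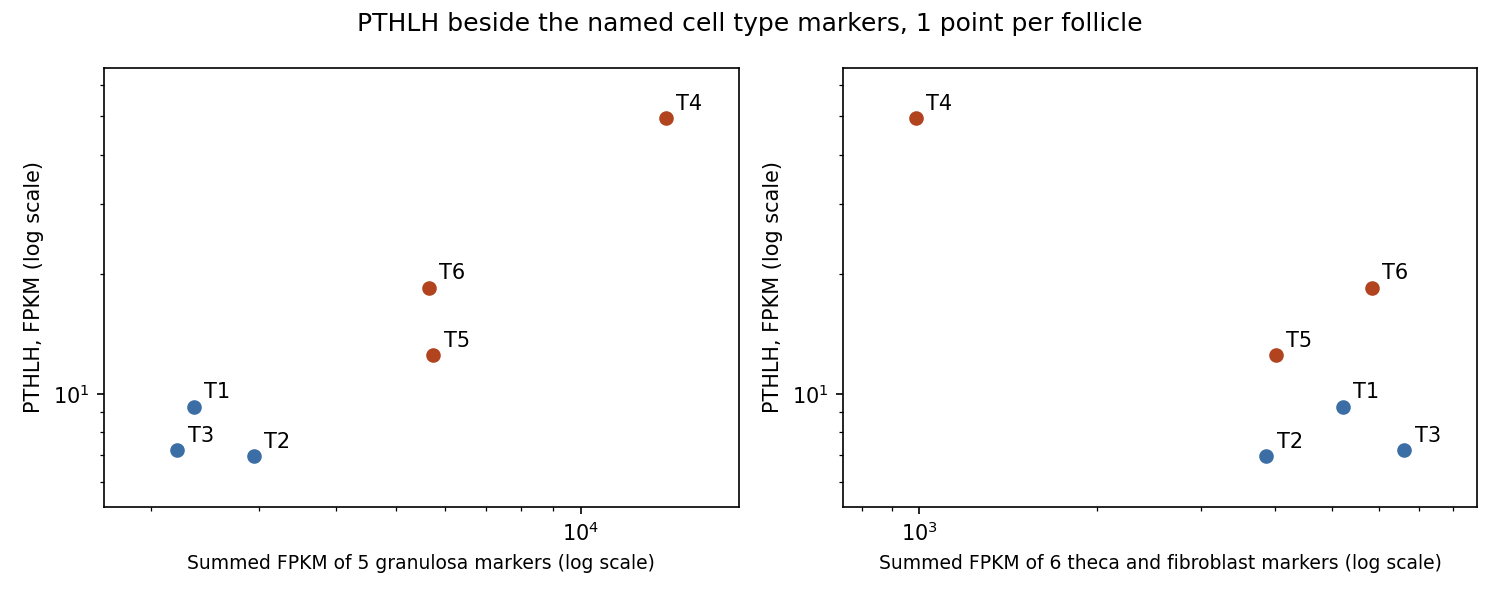
*PTHLH* (FPKM, log scale) against the summed FPKM of the 5 matched granulosa markers (left) and of the 6 matched theca and fibroblast markers (right, log scale), 1 point per follicle, T4, T5 and T6 in red and T1, T2 and T3 in blue. On the left T4 lies at 13719 FPKM of markers and 49.4 FPKM of *PTHLH*; on the right T4 alone lies at 988 FPKM, and the other follicles between 3870 and 6620 FPKM.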

How the data were processed

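The authors sequenced poly(A) RNA of 6 single follicles, 1 library each. The deposited table gives FPKM, computed by the authors per kilobase of transcript and per library, and the authors' normalized count, a signal equal to estimated fragments over a library factor. Named in the submitters' notes are Bowtie 0.12.2, Cufflinks and the build mm8, while the paper names a chicken build. Of 17993 lines, 1 repeats the column names. A further column of values (1) carries no sample name and was not used. Of the low normalized counts, 88.6% to 89.0% were whole multiples of a step within 0.02, so no count model was run; the *PTHLH* values were whole multiples, and their intervals (95%) cover counting error only. The sources used here give no batch or date.

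The hen pairs come from the paper. Deviations from the group means correlated at 0.43, 0.18 and 0.53 within hens 1, 2 and 3 and at -0.46 to 0.18 between hens. The pair of hen 2 (0.1811) was not above the highest value between hens (0.1822). Deviations cancel within a group, so high values within hens lower those between hens, and these correlations do not test the pairing. limma 3.58.1 in R 4.3.3 (lmFit, eBayes with trend and robust, hen as a block) was fitted to log2(FPKM + 0.5) of the 12381 genes that reached 1 FPKM in 3 or more follicles, and p-values were adjusted by Benjamini-Hochberg (limit 0.05); the fit was tested on simulated data. The rest used scipy 1.17.1, numpy 2.4.6 and pandas 2.3.3 under Python 3.11.15, with plots by matplotlib 3.10.9. The deposited table gives gene numbers only. In the T4 against T1 part of the study's list, 822 genes were read (all higher genes and the first of the lower ones). Of these, 322 received a symbol from a KEGG entry or protein description matched to a table of chicken genes, *PTHLH* by its description. Then 4 were set aside because the chromosome differed or could not be checked. Another 8 were set aside because their symbol was shared with another gene, which left 310. Named in the text are *PTHLH*, the 10 named and 5 unnamed genes with the highest r, the 5 named genes with the lowest r, the matched members of fixed lists and the nearest gene on each side; 1 of the 10 is not reported here. The gene and the lists were chosen with earlier results of these data known. Alternatives were pseudocounts of 0.1 and 1, none added, a median-of-ratios scaling, a filter of 5 FPKM or none, the fit without block, leaving out each hen, plain eBayes (no trend, not robust), normalized counts and other measures of likeness; eBayes options without hen 1, and r without 2 follicles, were added after the data were seen. A comparison with the study's qRT-PCR values was not made.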

Additional observations from a re-analysis of the deposited data

How the results depend on the processing

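The mean log2 ratio of *PTHLH* over hens was positive under all 13 alternatives, between 1.05 and 1.82. The adjusted p from limma was between 0.000228 and 0.999. Leaving out a hen could not change the sign, since the ratio was positive in every hen. Filter, block and eBayes options do not enter the mean, so its sign is no check of these settings. Leaving out a hen gave 1.05 to 1.82 for *PTHLH* and 0 to 466 genes called. The count was 0 without hen 2 or hen 3, and 466 without hen 1, or 125 without robust and 21 without trend or robust, both settings chosen after seeing the data. Without the hen as a replicate block the mean was 1.48 and the adjusted p 0.962. No other setting called a gene. Within hen 1 the log2 ratio was 2.70 in normalized count, against 2.35 in FPKM with 0.5 added; other settings moved no ratio by more than its counting interval. Of the 20 genes most like *PTHLH*, 11 were among the highest by Spearman's rho (44 genes tied at 1), 3 with hen means removed, 11 in normalized count, 9 without T4, 15 with a filter of 5 FPKM and 3 without T4 and T6, so that the list depends on the measure. The cause was not tested. With 63 to 86 fragments in T1, T2 and T3, depth does not resolve differences among these follicles. With 1 follicle per hen and group, no ratio within a hen can be tested.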
